A study of Homo sapiens with 6 samples.

Results

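PAX3 and PAX7 are paired-box homeodomain transcription factors, and their chromatin was described here in human neural progenitors by the peaks of 2 histone marks that overlap a window around each gene. The windows lay on genome build hg19 and ran from 223060 to 223195 kb on chromosome 2 for PAX3 (135 kb) and from 18940 to 19080 kb on chromosome 1 for PAX7 (140 kb). Of 142800 peaks in the 4 deposited lists, 216 overlapped a window, 92 at PAX3 and 124 at PAX7. The windows were set by position and not by a measured value, but the genes were chosen with earlier results of these data known.

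Both genes are expressed in the dorsal neural tube and at the neural plate border, where WNT and BMP signals favour them and SHH from the ventral midline restricts them. PAX3 is needed for neural crest and for migrating muscle progenitors, and PAX7 for muscle satellite cells and for the dorsal midbrain that becomes the tectum. H3K4me3 marks active and poised promoters. H3K27me3 is written by Polycomb repressive complex PRC2 over silent developmental genes, and a stretch that carries both marks is called bivalent. Peaks of a mark describe chromatin and not expression.

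The cells were H9 (WA-09), an established human embryonic stem cell line, taken on day 11 of a differentiation towards midbrain dopamine neurons and analysed by chromatin immunoprecipitation and sequencing (ChIP-seq). Boost-Chir cultures received 7.5 µM CHIR99021, a GSK3 inhibitor that activates canonical WNT signalling, from day 4 to day 10. Low-Chir cultures were not given that boost. Doses from day 4 started at 0.7 µM according to the protocol, which leaves the Low-Chir dose unnamed. All cultures shared 0.7 µM CHIR99021 at the start, SHH C25II (a modified SHH), LDN and SB431542 (inhibitors of BMP and TGFβ receptors), all 3 of these withdrawn on day 7, the ROCK inhibitor Y-27632 at the start, and 3 µM CHIR99021 from day 10 together with BDNF, GDNF, TGFβ3, ascorbic acid and dibutyryl cAMP. SHH, which restricts PAX3 and PAX7 in the embryo, was thus present in both conditions until day 7. There was 1 library for every mark and condition, all from 1 cell line, so no difference below has a replicate check and no p-value is given.

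The H3K4me3 lists held 46793 peaks over 49.7 Mb in Boost-Chir and 44022 peaks over 38.5 Mb in Low-Chir. The H3K27me3 lists held 26260 peaks over 18.8 Mb in Boost-Chir and 25725 over 20.9 Mb in Low-Chir. Depth recovered from the lists was 1.21 times as high in Boost-Chir for H3K4me3 and 0.971 times for H3K27me3. The neural progenitor genes SOX1, SOX2 and NES carried H3K4me3 in both conditions, as did the midbrain genes OTX2, EN1, LMX1A and FOXA2. EN2, a further midbrain gene, had 11.0 kb under H3K4me3 peaks in Boost-Chir and 0 kb in Low-Chir, within the gene and 10 kb on each side. SOX1, OTX2, EN1, EN2 and LMX1A also had H3K27me3 peaks in both conditions, and SOX2, NES and FOXA2 had none. The length under H3K27me3 peaks was not alike in both, however. EN1 had 2.24 kb in Boost-Chir and 21.4 kb in Low-Chir, and LMX1A, the other way, 16.1 kb in Boost-Chir and 1.43 kb in Low-Chir.

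The bases just upstream of each gene show what kind of promoter the marks can act on, since CpG-rich promoters are the usual sites of bivalent chromatin. The 250 bases before the start of each gene, from RefSeq on GRCh38.p14, are printed 5′ to 3′ on the gene's strand with every CpG in capitals. PAX3 is at chr2:222298999-222299248 on the minus strand and PAX7 at chr1:18630596-18630845 on the plus strand. These positions belong to another build than the peaks and cannot be set against them.
PAX3: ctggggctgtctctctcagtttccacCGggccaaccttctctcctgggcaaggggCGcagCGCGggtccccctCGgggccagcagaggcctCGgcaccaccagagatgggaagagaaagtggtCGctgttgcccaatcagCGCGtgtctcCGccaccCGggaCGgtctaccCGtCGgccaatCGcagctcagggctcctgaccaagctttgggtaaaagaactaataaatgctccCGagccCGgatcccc
PAX7: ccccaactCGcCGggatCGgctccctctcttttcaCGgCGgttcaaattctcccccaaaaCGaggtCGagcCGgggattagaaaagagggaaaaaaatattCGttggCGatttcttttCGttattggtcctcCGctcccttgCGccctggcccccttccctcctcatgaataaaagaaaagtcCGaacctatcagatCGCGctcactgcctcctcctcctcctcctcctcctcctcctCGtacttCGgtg

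The PAX3 stretch held 17 CpG at a G+C content of 64.0%, and the PAX7 stretch 18 CpG at 54.8%. Over 35116 promoters of the same length the median was 11 CpG and 58.0% G+C, and 63.2% of promoters had no more CpG than PAX3 and 65.4% no more than PAX7. Both promoters were thus above the median in CpG and neither was extreme. Read on both strands, the CCAAT box, a general promoter element, was found at PAX3 with its first base 118 and 73 bases before the start, and once at PAX7, on the reverse strand, 128 bases before the start. CCAAT occurred in 32.0% of all promoters. The letters CTTTGA and CTTTGT, cores of the sites that the WNT effectors TCF and LEF bind, were in neither stretch, and 11.2% and 13.7% of promoters held them. None of these matches overlapped.

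H3K4me3 covered more of both windows in Boost-Chir. The PAX3 window held 12 H3K4me3 peaks over 11.8 kb (8.77% of the window) in Boost-Chir and 9 peaks over 4.95 kb (3.67%) in Low-Chir, a gain of 6.88 kb or 2.39-fold. The PAX7 window held 8 peaks over 5.33 kb (3.81%) in Boost-Chir and 3 peaks over 0.608 kb (0.434%) in Low-Chir, a gain of 4.73 kb or 8.77-fold. Both windows passed the rule for a longer mark, a change of at least 2-fold and at least 2 kb, which 2.71% of 7268 tiles of 140 kb across the genome also passed. H3K4me3 was more extensive in Boost-Chir in 88.8% of those tiles, with a median gain of 1193 bp. A gain at least as large as that of PAX3 was seen in 95 tiles (1.31%) and one at least as large as that of PAX7 in 322 tiles (4.43%). The tiles lie on a fixed grid and the windows were placed around the genes, so the 2 are not on an equal basis. The Boost-Chir library was also the deeper one, by 1.21 times, and the part of depth in the added length was not tested. With only the upper 50% of each list by −log10 q, PAX7 held 1.88 kb in Boost-Chir and 0 kb in Low-Chir and no longer passed the 2 kb limit.

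**Figure D1:**
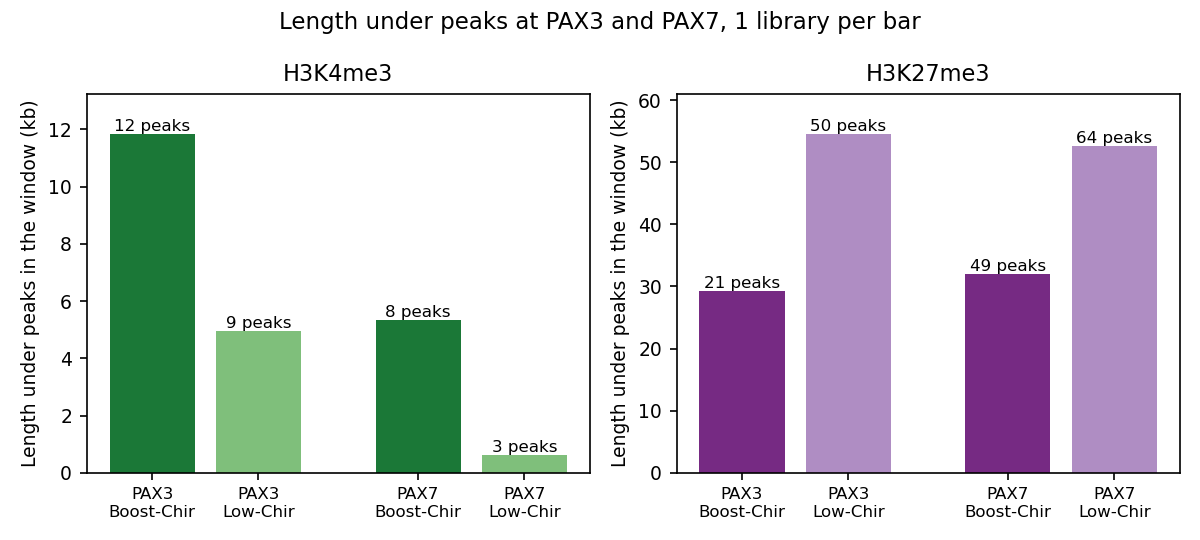
Length under peaks (kb) in the PAX3 and PAX7 windows for H3K4me3 and H3K27me3, with Boost-Chir left of Low-Chir and 1 library per bar. H3K4me3 stands higher in Boost-Chir at both genes (11.8 against 4.95 kb at PAX3, 5.33 against 0.608 kb at PAX7), and H3K27me3 stands lower (29.2 against 54.5 kb, and 32.0 against 52.6 kb).

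At PAX3 most of the added H3K4me3 lay in 1 place. Peaks of either condition that lay less than 3 kb apart were merged into loci, and the PAX3 window held 3 H3K4me3 loci. The first, chr2:223153212-223166151, had 8.85 kb under peaks in Boost-Chir and 1.96 kb in Low-Chir, a 4.52-fold difference that ranked 22 by gain among 16580 H3K4me3 loci. It held the peak of highest fold enrichment in Boost-Chir, chr2:223153678-223155689, at 9.26-fold with 33 reads at its summit, and the longest one, chr2:223160011-223164125, of 4115 bp at 7.08-fold with 38 reads. The second locus, chr2:223169833-223171006, had no peak in Boost-Chir and 0.734 kb in Low-Chir. The third, chr2:223182480-223185853, had 2.99 kb in Boost-Chir and 2.26 kb in Low-Chir. It held the Low-Chir peak of highest fold, chr2:223184541-223185754, at 6.47-fold with 20 reads, and the one first by −log10 q (11.2), chr2:223182935-223183764, at 5.51-fold with 26 reads. The highest PAX3 peak thus stood at different loci in the 2 conditions, and the first locus is the one that set the window's difference. In the RefSeq gene order 2 lncRNA genes, 1 of them CCDC140, lie just upstream of PAX3, and peaks were not assigned to one gene or another.

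**Figure D2:**
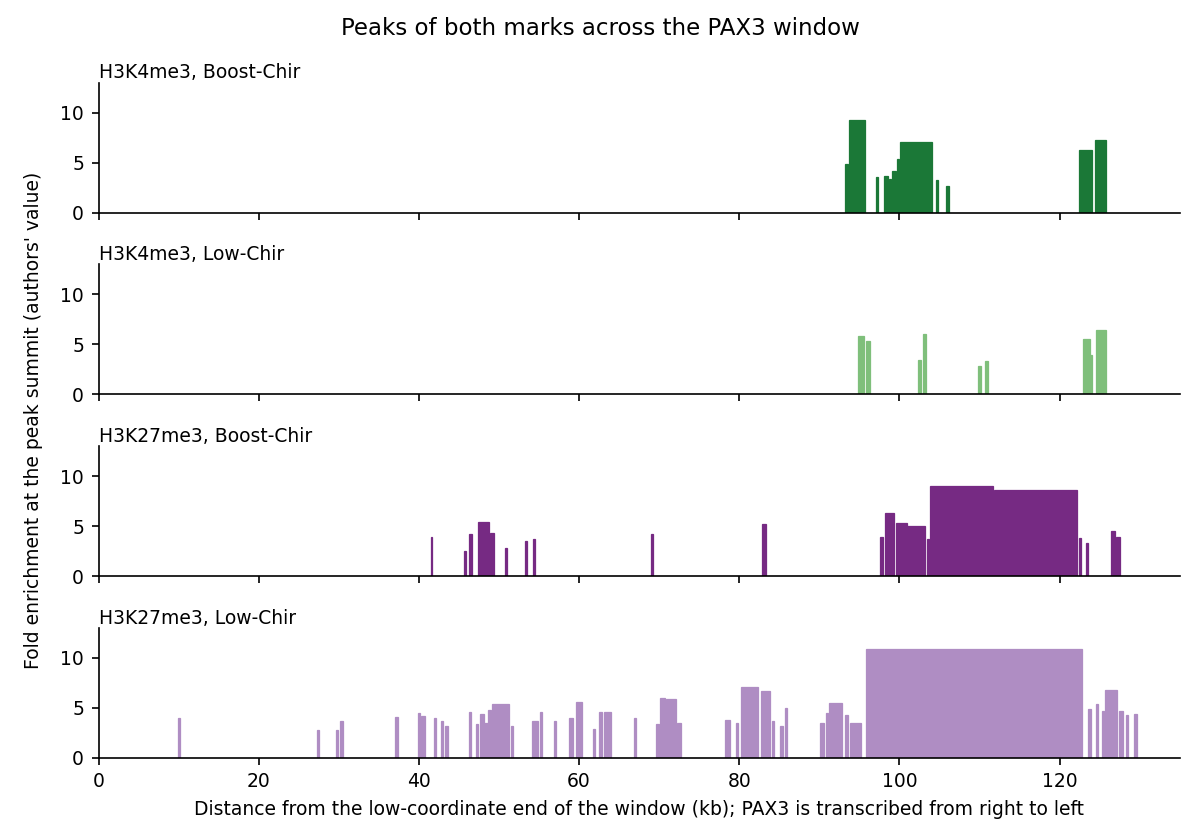
Peaks of each mark and condition along the PAX3 window, with distance in kb along the horizontal axis and fold enrichment as peak height, Boost-Chir above Low-Chir for each mark. The Boost-Chir H3K4me3 peaks crowd into the locus with 8.85 kb under peaks, and the Low-Chir H3K27me3 peaks reach across most of the window (50 peaks, against 21 in Boost-Chir).

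At PAX7 the Boost-Chir cells carried H3K4me3 at a locus that had no Low-Chir peak. That locus, chr1:18966353-18974070, had 2.88 kb under 5 peaks in Boost-Chir and 0 kb in Low-Chir, and ranked 382 of 16580 by gain. Its peak chr1:18969383-18970808 led the window at 6.81-fold with 24 reads over 1426 bp. A neighbouring locus, chr1:18956920-18959665, had 2.25 kb in Boost-Chir, including the longest peak of 2049 bp at 3.59-fold with 22 reads. In Low-Chir it had 0.608 kb in 3 short peaks of 200 to 208 bp with 10 to 15 summit reads, the highest at 4.62-fold. A single Boost-Chir peak of 204 bp at chr1:19043298-19043501 had no Low-Chir partner. All H3K4me3 found at PAX7 in Low-Chir therefore amounted to these 3 weak peaks.

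Of the 6 H3K4me3 loci at both genes, 4 held at least 2 kb in a condition and 2 of those were longer in Boost-Chir, 1 at each gene, against 2.92% of the 10392 loci of that size in the genome. None was shorter, against 0.289%. As point values, top height differed by a smaller ratio than covered length. The top fold enrichment was 9.26 in Boost-Chir and 6.47 in Low-Chir at PAX3, and 6.81 in Boost-Chir and 4.62 in Low-Chir at PAX7. Expressed as summit reads per unit of recovered depth, the Boost-Chir to Low-Chir ratio was 1.37 at PAX3 (exact 95% interval 0.761 to 2.51) and 1.32 at PAX7 (0.667 to 2.71). Both intervals include 1 and cover counting error only, so a difference in height between these top peaks was not detectable at these read numbers. The PAX3 interval also includes the PAX3 length ratio of 2.39, so height and length cannot be ranked there. The top peaks stood at different loci in Boost-Chir and Low-Chir at both genes, so these ratios do not compare the same site. Of the 3 loci with peaks in both conditions, 0 had a summit at least 1.5-fold higher in Boost-Chir, against 5.11% of 14475 such loci, and 0 had one as much lower, against 2.95%. Their ratios of reads above background per depth ran from 1.10 to 1.34, all above the genome median of 1.09.

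H3K27me3 covered less of both windows in Boost-Chir. The PAX3 window held 21 peaks over 29.2 kb (21.6%) in Boost-Chir and 50 peaks over 54.5 kb (40.4%) in Low-Chir, a difference of -25.3 kb and a ratio of 0.535. The PAX7 window held 49 peaks over 32.0 kb (22.8%) in Boost-Chir and 64 peaks over 52.6 kb (37.6%) in Low-Chir, a difference of -20.6 kb and a ratio of 0.608. Neither passed the 2-fold rule for a shorter mark, which 9.81% of 2405 tiles passed. In absolute length the differences were large beside the tiles, with 6 tiles (0.249%) losing as much as PAX3 and 10 (0.416%) as much as PAX7. The tiles lie on a fixed grid that can split a marked region, whereas the windows were placed around the genes. These shares may therefore be too low. The median tile differed by -469 bp, and 61.5% of tiles had less H3K27me3 in Boost-Chir. The PAX3 call depended on how the region was drawn. Within the gene and 10 kb on each side, PAX3 had 19.6 kb in Boost-Chir and 42.2 kb in Low-Chir, a ratio of 0.464 that passed 2-fold, and with gaps under 3 kb counted the ratio in the full window was 0.460.

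At both genes a core of H3K27me3 was present in both conditions, and the conditions differed most around it in relative length. At PAX3 the longest locus, chr2:223150114-223189704, had 24977 bp under peaks in Boost-Chir and 34876 bp in Low-Chir, a ratio of 0.716. In Low-Chir a single peak, chr2:223155765-223182796, ran over 27032 bp and was also the highest, at 10.8-fold with 54 reads. In Boost-Chir the longest peak there was chr2:223171783-223182179, of 10397 bp at 8.60-fold with 43 reads, also first by −log10 q (23.4), and the highest by fold was its neighbour chr2:223163823-223171731 at 8.97-fold with 37 reads. The other 4 PAX3 loci together had 4.22 kb in 10 peaks in Boost-Chir and 19.7 kb in 37 peaks in Low-Chir, a ratio of 0.215. Among them chr2:223097018-223132732 had 3.71 kb in Boost-Chir and 13.5 kb in Low-Chir, and chr2:223138243-223145923 had 0.515 kb in Boost-Chir and 5.04 kb in Low-Chir. The remaining 2, chr2:223069912-223070115 and chr2:223087266-223090554, had no Boost-Chir peak and 0.204 and 0.880 kb in Low-Chir.

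PAX7 had the same arrangement in relative length but not in absolute length. The PAX3 difference, Boost-Chir minus Low-Chir, was -9.90 kb in the longest locus and -15.4 kb in the other 4. The PAX7 difference was -13.1 kb in the longest locus and -7.53 kb in the other 4. The longest PAX7 locus, chr1:18941869-19006778, had 30.6 kb in Boost-Chir and 43.7 kb in Low-Chir, a ratio of 0.700. The Low-Chir peak chr1:18958099-18973245 ran over 15147 bp at 11.7-fold with 49 reads. In Boost-Chir the longest peak was chr1:18959555-18963972, of 4418 bp, and the highest was chr1:18975320-18977889 at 7.50-fold with 30 reads. The other 4 PAX7 loci together had 1.42 kb in 5 peaks in Boost-Chir and 8.95 kb in 22 peaks in Low-Chir, a ratio of 0.158. Of these, chr1:19038675-19049714 had 0 kb in Boost-Chir and 4.18 kb in Low-Chir, and chr1:19016810-19023584 had 0.631 kb in Boost-Chir and 2.83 kb in Low-Chir. The loci chr1:19010036-19013341 and chr1:19030325-19033556 had 0.557 and 0.230 kb in Boost-Chir, against 1.42 and 0.524 kb in Low-Chir. Ratios of summit reads above background per depth did not separate the longest loci from the others. They were 0.801 in the longest PAX3 locus, and 0.824 and 0.675 in others with peaks in both conditions. At PAX7 they were 0.698, and 0.598, 0.821 and 0.759. Top folds outside the longest loci were lower, and the part of the calling threshold in the length ratios was not tested.

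**Figure D3:**
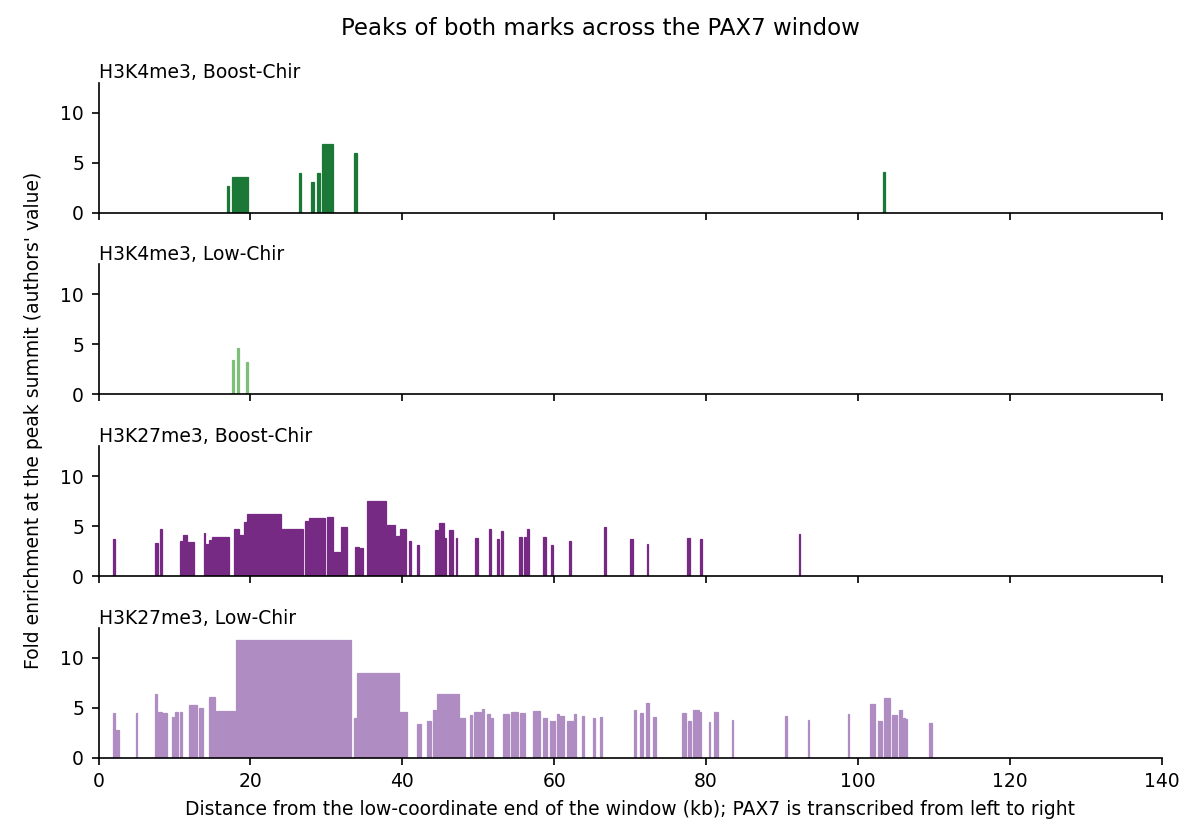
Peaks of each mark and condition along the PAX7 window, with distance in kb along the horizontal axis and fold enrichment as peak height, Boost-Chir above Low-Chir for each mark. H3K4me3 shows 8 peaks in Boost-Chir, against 3 in Low-Chir. The tallest H3K27me3 peak (11.7-fold) belongs to Low-Chir.

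All 10 H3K27me3 loci of the 2 genes had less length under peaks in Boost-Chir, as had 54.7% of all 7868 loci of the mark. Of the 6 that held at least 2 kb, 4 were shorter by the 2-fold and 2 kb rule, 2 at each gene, against 9.61% of 2715 loci of that size. None was longer, against 4.49%. Neighbouring loci share a library and may share a domain, so they are not independent observations. In steps of 5 kb, 21 of the 23 PAX3 steps and 21 of the 21 PAX7 steps that held any H3K27me3 had less of it in Boost-Chir, and 0 had more at either gene. Over all 15287 such steps of the genome, 55.4% had less in Boost-Chir and 42.7% had more. Of the Boost-Chir peaks, 17 of 21 at PAX3 and 39 of 49 at PAX7 were overlapped by a Low-Chir peak, where 63.7% of all 26260 Boost-Chir peaks were. Of the Low-Chir peaks, 12 of 50 at PAX3 and 26 of 64 at PAX7 were overlapped by a Boost-Chir peak, where 56.9% of all 25725 Low-Chir peaks were. The 38 Low-Chir peaks at PAX3 with no Boost-Chir partner covered 19.3 kb with a median of 20 summit reads, and the 38 at PAX7 covered 16.1 kb with a median of 18.5. Those Low-Chir peaks that had a partner covered 35.3 kb at PAX3 and 36.5 kb at PAX7, with medians of 23.5 and 20 reads.

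A difference in height between the highest H3K27me3 peaks of Boost-Chir and Low-Chir was not detectable either. The highest peak was taken separately in each condition. At PAX7 these peaks did not overlap, and at PAX3 their summits lay apart, so the ratios do not compare the same site. Summit reads per unit of depth had a Boost-Chir to Low-Chir ratio of 0.706 at PAX3 (exact 95% interval 0.451 to 1.09). At PAX7 the ratio was 0.630 (0.386 to 1.01), and both intervals include 1. At the 7 loci with peaks in both conditions the ratio of reads above background per depth ran from 0.598 to 0.824, all under the genome median of 0.920. The ratio was under 1/1.5 at 1 of them, the PAX7 locus chr1:19010036-19013341 (0.598), against 5.85% of 4499 loci, and above 1.5 at 0, against 1.2%. Depth was nearly equal for this mark, at 0.971 times in Boost-Chir.

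**Figure D4:**
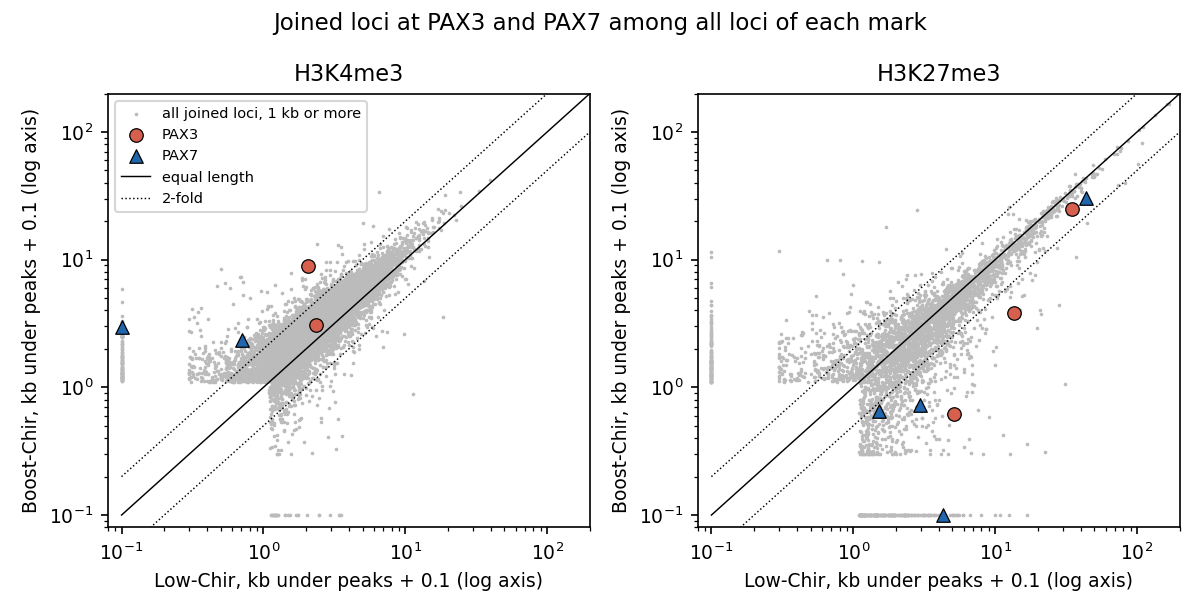
Length under peaks per joined locus (kb + 0.1, log axes) in Boost-Chir (vertical) and Low-Chir (horizontal) for H3K4me3 and H3K27me3, with all loci of 1 kb or more in grey and those of PAX3 and PAX7 marked. The PAX3 H3K4me3 locus with 8.85 kb in Boost-Chir and 1.96 kb in Low-Chir lies well off the line of equal length, and all H3K27me3 loci drawn for both genes lie on the Low-Chir side.

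The gain of H3K4me3 and the loss of H3K27me3 touched only in part. At PAX3, 1.98 kb carried H3K27me3 in Boost-Chir only, 27.3 kb in Low-Chir only and 27.2 kb in both. Of the Low-Chir-only length, 83.4% had no H3K4me3 in either condition, 9.54% had H3K4me3 in Boost-Chir only and 5.34% had it in both. At PAX7 the lengths were 4.45 kb in Boost-Chir only, 25.1 kb in Low-Chir only and 27.5 kb in both, and 96.5% of the Low-Chir-only length had no H3K4me3. Seen from the other mark, H3K4me3 present in Boost-Chir only covered 8.08 kb at PAX3, of which 61.6% had H3K27me3 in both conditions and 32.3% in Low-Chir only. At PAX7 it covered 4.76 kb, of which 80.7% had H3K27me3 in both and 13.1% in Low-Chir only.

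Length under both marks was therefore greater in Boost-Chir, at 5.85 kb against 3.31 kb in Low-Chir for PAX3 and 4.33 kb against 0.608 kb for PAX7. All H3K4me3 covered 11.8 kb in Boost-Chir and 4.95 kb in Low-Chir at PAX3, and 5.33 and 0.608 kb at PAX7. As a share of H3K4me3, the length under both marks was thus lower in Boost-Chir at both genes. As a share of H3K27me3 it was higher. The genome background of length under both marks was not taken, so these values are not shown to be particular to PAX3 and PAX7. H3K4me3 alone was more extensive in Boost-Chir in 88.8% of tiles. At the PAX3 locus with most added H3K4me3, 7.54 kb was under H3K27me3 in Boost-Chir and 12.2 kb in Low-Chir. At the PAX7 locus with H3K4me3 in Boost-Chir only, the figures were 5.92 kb in Boost-Chir and 7.32 kb in Low-Chir. A shared stretch can mean both marks on the same chromatin or each in different cells, and these cannot be told apart in bulk samples, nor can fewer cells with a mark and less of it per cell.

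The other PAX genes were measured within the gene and 10 kb on each side, beside PAX3 and PAX7 on the same basis. The hand-placed windows of PAX2, PAX5 and PAX6 differed from RefSeq in gene length by more than 3 kb, so their values are less certain. Among 7 others, 3 were longer in H3K4me3 in Boost-Chir and 1 was shorter, against 2.71% and 0.303% of 140 kb tiles, which are wider than most of these windows. The counted tiles also each held at least 2 kb of the mark, which PAX1 and PAX4 did not. PAX2 and PAX5, which pattern the midbrain-hindbrain boundary, had 17.9 and 13.5 kb of H3K4me3 in Boost-Chir, against 7.79 and 3.26 kb in Low-Chir. They were also the 2 that were shorter in H3K27me3, with 14.4 and 21.2 kb in Boost-Chir and 39.9 and 59.7 kb in Low-Chir, where 9.81% of tiles were shorter. PAX8 had 3.31 kb of H3K4me3 in Boost-Chir and 0.679 kb in Low-Chir. PAX6, a forebrain and eye factor, went the other way, with 3.36 kb in Boost-Chir and 12.7 kb in Low-Chir, and its H3K27me3 was 34.0 kb in Boost-Chir and 29.2 kb in Low-Chir. PAX1, PAX4 and PAX9 passed the rule for neither mark. PAX3 and PAX7 had 8.85 and 5.33 kb of H3K4me3 in Boost-Chir, against 2.69 and 0.608 kb in Low-Chir, more in Boost-Chir as at PAX2, PAX5 and PAX8.

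**Figure D5:**
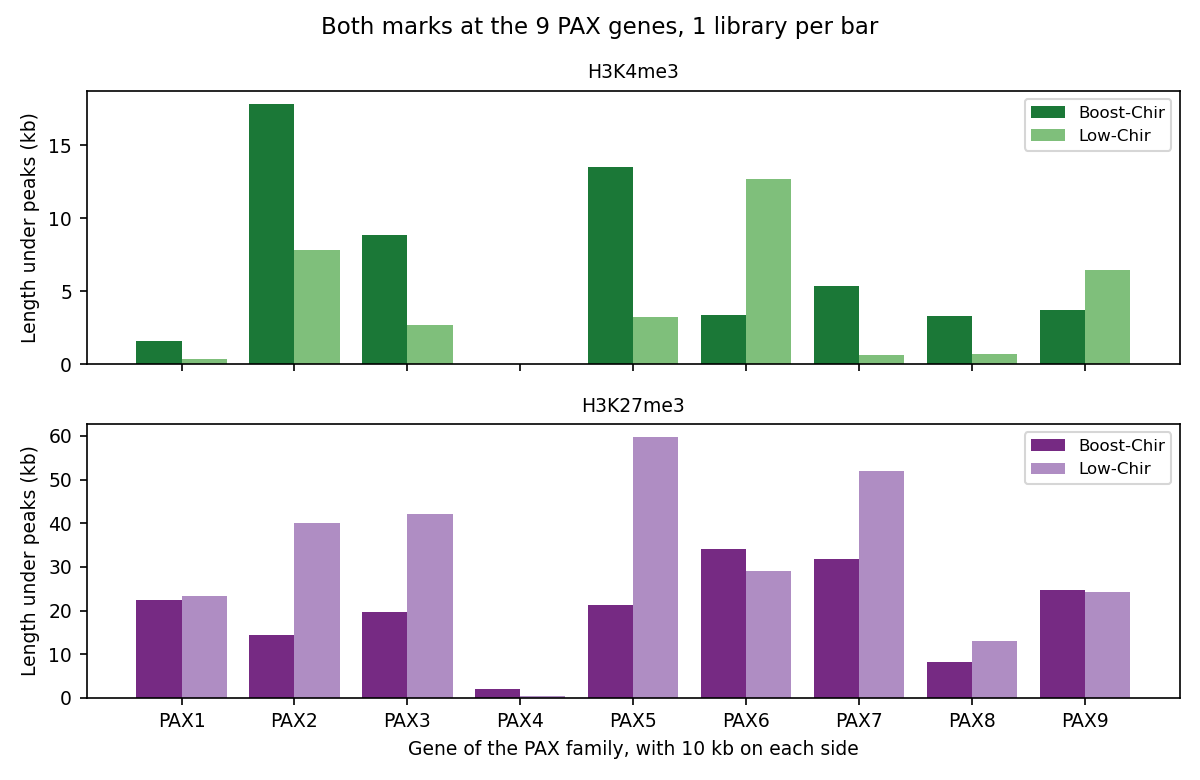
Length under peaks (kb) of H3K4me3 and H3K27me3 for the 9 PAX genes, each within the gene and 10 kb on each side, in Boost-Chir and Low-Chir. PAX2, PAX3, PAX5, PAX7 and PAX8 have more H3K4me3 in Boost-Chir by the 2-fold and 2 kb rule, and PAX6 has less (3.36 against 12.7 kb).

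Genes of the dorsal and the ventral neural tube were read on the same basis, and counts in lists this short say little beside the background. The 140 kb tiles are wider than most of these windows. Each counted tile held at least 2 kb of the mark, which some listed genes, WNT3A among them for H3K4me3, did not. The shares of genes and of tiles are therefore not on an equal basis. Of 10 dorsal neural tube and roof plate genes, 1 was longer in H3K4me3 in Boost-Chir and 0 were shorter, against 2.71% and 0.303% of tiles, with a median difference of 0.115 kb. The one was ZIC1, a dorsal zinc-finger factor, with 13.2 kb in Boost-Chir and 5.00 kb in Low-Chir, and its H3K27me3 was 16.5 kb in Boost-Chir and 27.3 kb in Low-Chir. In H3K27me3, 0 of the 10 were shorter and 1 was longer, against 9.81% and 4.66% of tiles. That was LMX1A, a roof plate factor also used by midbrain dopamine progenitors, with 16.1 kb in Boost-Chir and 1.43 kb in Low-Chir. Among 7 ventral genes, 0 were longer and 1 shorter in H3K4me3, against the same 2.71% and 0.303%, with a median difference of -1.19 kb. DBX1, an interneuron progenitor factor, had 2.62 kb in Boost-Chir and 7.31 kb in Low-Chir. In H3K27me3, 2 ventral genes were longer and 0 shorter, against 4.66% and 9.81% of tiles. SHH, the ventral signal itself, had 11.6 kb in Boost-Chir and 0.200 kb in Low-Chir. NKX2-2, a ventral homeodomain factor, had 17.9 kb in Boost-Chir and 8.95 kb in Low-Chir. Its ratio of 2.00 is at the limit of the rule, and its window also differed from RefSeq by more than 3 kb.

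Markers of the other cell types that use PAX3 or PAX7 were read in the same way. Of 4 neural crest genes, 3 carried H3K4me3 in both conditions and SOX10 carried none in either. Their summed length was 13.9 kb in Boost-Chir and 8.46 kb in Low-Chir. None of the 4 passed the rule for H3K4me3, which 2.71% of tiles passed, so the count says nothing particular of them. SOX10, without the mark, could not pass, whereas every counted tile held at least 2 kb. TFAP2A had 7.35 kb in Boost-Chir and 4.84 kb in Low-Chir, FOXD3 2.98 kb in Boost-Chir and 1.93 kb in Low-Chir, and SNAI2 3.62 kb in Boost-Chir and 1.69 kb in Low-Chir. H3K27me3 covered 42.7 kb in Boost-Chir and 43.0 kb in Low-Chir at TFAP2A, and 18.1 and 18.0 kb at FOXD3. It covered 1.39 and 2.40 kb at SOX10, and 0 and 0.604 kb at SNAI2. The part of neural crest cells in the PAX3 and PAX7 values was not tested. The muscle genes MYF5 and MYOD1 had no H3K4me3 peak in either condition. TBXT, a mesoderm factor and WNT target, had 5.86 kb of H3K4me3 in Boost-Chir and 0.482 kb in Low-Chir. Of the pluripotency genes, POU5F1 had 3.45 kb in Boost-Chir and 2.43 kb in Low-Chir, and NANOG had none in either.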

How the data were processed

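ChIP-seq of H3K4me3 and H3K27me3 was deposited as 1 peak list per mark and condition; samples were grouped by their titles, and the 2 inputs were not analysed here. The submitters' processing notes name hg19, Picard, BWA 0.7.12 and cutadapt 1.6; the peak caller is not given in the sources used here. For each peak the deposited lists hold the authors' fold enrichment, which is a ratio to local background, with p and q values as −log10. A deposited score, −log10 q on a whole-number scale, was not used. These values belong to single peaks and served to describe or filter them within a list. Positions are on hg19, counted from 1.

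Covered length is the union of peaks within a window; a peak counts with 1 bp of overlap. Peaks of both conditions within 3 kb were joined into loci. A change of at least 2-fold and 2 kb was called longer or shorter, and its frequency was taken over all loci and over 140 kb tiles that held at least 2 kb. Restricting the loci to that size was decided after seeing the data. Summit reads were solved from fold, (pile-up + 1) over (background + 1), and a Poisson p-value. The pile-up and background are reads times a step of 1 for H3K4me3 and, for H3K27me3, of 0.977 (Boost-Chir) or 0.909 (Low-Chir). For 100% of peaks the solution gave back the deposited −log10 p to 0.001. That match follows from solving for the same p-value, so it is no check of the read numbers or depths. Median summit reads were 18 in Boost-Chir and 17 in Low-Chir for H3K4me3, and 18 in Boost-Chir and 20 in Low-Chir for H3K27me3. Ratios of reads carry exact (Clopper-Pearson) 95% intervals for counting error only, and PCR duplicates may remain.

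The text names, per window, mark and condition, the peaks first by fold, by −log10 q and by length, and every joined locus; of other genes it names those that pass the rule or mark a cell type, and a few added for their values. Windows of the other genes were placed by hand on hg19 from general knowledge, with 10 kb added on each side. Of 42 genes checked against RefSeq (GRCh38.p14), 42 had the same chromosome and 37 a length within 3 kb. Those further off were PAX2 (by 9.55 kb), NKX2-2 (7.67 kb), GDF7 (6.1 kb), PAX6 (5.06 kb) and PAX5 (4 kb). Their windows are less certain, and all but GDF7 are among the genes named above for a call. No annotation of hg19 was used, so no peak is assigned to an exon or promoter. The members and lists were chosen with earlier results of these data known. One marker gene of the lists is not reported here. The code was tested on simulated data. Alternatives were stricter peak sets, equal peak numbers, joined peaks and wider windows. Python 3.11.15, numpy 2.4.6, pandas 2.3.3, scipy 1.17.1 and matplotlib 3.10.9 were used.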

Additional observations from a re-analysis of the deposited data

How the results depend on the processing

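All 24 alternative values of covered length, 6 for each gene and mark, kept the direction of the main value, but some only repeat it. Lengths at the depth of the shallower library were unchanged. H3K4me3 lengths and all top folds were also unchanged in windows widened by 25 kb. The differences, Boost-Chir minus Low-Chir, ran from 6.14 to 9.87 kb for PAX3 H3K4me3, from 1.88 to 8.56 kb for PAX7 H3K4me3, from -46.7 to -18.8 kb for PAX3 H3K27me3 and from -28.4 to -18.6 kb for PAX7 H3K27me3. With the upper 50% of each list by −log10 q, the PAX7 H3K4me3 difference was 1.88 kb and under the 2 kb limit. With peaks within 3 kb joined and gaps counted, it was 8.56 kb, the PAX3 H3K27me3 difference was -46.7 kb and passed 2-fold, and the PAX7 H3K27me3 difference was -28.4 kb. Counting the gaps adds length by construction. The other 28 alternatives, those of the top fold enrichment included, stayed within the main value's 95% counting interval, taken over steps of 200 bp for lengths. For lengths this interval treats neighbouring steps as independent, though single peaks span many steps. It does not measure the spread between libraries, so staying within it is no measure of stability. Removing peaks whose summits would not reach the threshold at the depth of the shallower library, chosen after seeing the data, removed no peak in either window. It does not correct for peak width, which depth also sets. No paired analysis was possible because there was only 1 library for every mark in either condition. Leading summits of 15 to 54 reads limit what can be said of height.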
